A study of Homo sapiens with 4 samples.

Results

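The ZNF genes encode zinc finger proteins, the largest class of sequence-specific DNA-binding factors in the human genome. The genes described here are those expressed in MV4-11 cells, a human acute myeloid leukemia (AML) cell line. The expression table, in FPKM (fragments for each kilobase of transcript, relative to the reads mapped), lists 424 genes whose symbol is ZNF, a number and at most 1 further letter, over 829 RefSeq transcripts. The values of a gene's transcripts were summed in each library, and the 193 genes whose mean over the 4 libraries reached 3 FPKM were kept. Of the others, 177 had a mean between 0.5 and 3 FPKM and were tested with all genes, and 54 lay below 0.5 FPKM. The level of 3 FPKM chose the genes, so the levels themselves are a description.

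The control cells carried the hairpin sh-NC (2 libraries), and the knockdown cells carried sh-CEBPG#3 (2 libraries), a short hairpin RNA against CEBPG, the CCAAT enhancer binding protein gamma. Both groups are the same cell line with no other treatment in the labels, and in the study's methods cells were infected with lentivirus and selected with puromycin. A single CEBPG hairpin was sequenced, so an effect of the hairpin and an effect of lower CEBPG cannot be told apart. No source used here says that the 2 libraries of a group are separate infections or cultures, so the p-values measure the spread between these libraries, which may be technical.

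A C2H2 zinc finger is a short fold held by a zinc ion through a pair of cysteines and a pair of histidines, and a row of such fingers reads a stretch of DNA. Many ZNF proteins carry a KRAB domain, which recruits TRIM28 (KAP1) and, through it, the histone methyltransferase SETDB1 and heterochromatin protein 1. KRAB zinc finger genes are known for silencing transposable elements, and many lie in clusters on chromosome 19. Others carry a SCAN domain, by which the proteins pair, or neither domain, and several of these act at promoters, on RNA or at the spindle.

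CEBPG, the gene targeted, had 30.4 and 33.6 FPKM in sh-NC cells and 19.2 and 17.1 FPKM in sh-CEBPG#3 cells, so that 56.8% of the control level remained. The FPKM totals of the libraries ranged from 364353 to 389766. All 8 markers of myeloid leukemia cells examined were expressed. CD33 had 26.8 to 37.2 FPKM over the libraries and FLT3 62.8 to 75.0 FPKM, while COL1A1 of fibroblasts reached at most 0.0781 FPKM. The lysozyme gene LYZ, a marker of the monocytic line, had 567 and 610 FPKM in sh-NC cells and 3130 and 2980 FPKM in sh-CEBPG#3 cells, and MEIS1, a factor of immature cells, had 6.65 and 7.34 against 3.42 and 3.29 FPKM. The granule gene MPO of myeloid precursors was higher too, with 70.7 and 80.4 against 118 and 115 FPKM, whereas ITGAM of mature myeloid cells had 7.74 and 7.85 against 8.7 and 8.02 FPKM. The part of these markers in the changes of the ZNF genes was not tested.

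To find which expressed ZNF genes changed upon CEBPG knockdown, log2(FPKM + 1) values were compared with limma over all 12142 genes that reached a mean of 0.5 FPKM, and p-values were adjusted over all of them by the Benjamini-Hochberg method. Of the 193 ZNF genes, 47 (24.4%) were lower and 19 (9.84%) were higher in sh-CEBPG#3 cells at an adjusted p under 0.05, and 127 were not called. Over all genes tested, 23.8% were lower, 18.5% were higher and 42.2% were called in either direction. The share of lower ZNF genes was near this background and the share of higher ones was below it. The background reaches down to a mean of 0.5 FPKM and the ZNF genes only to 3 FPKM, so the shares rest on unlike levels. Of the 177 ZNF genes tested below 3 FPKM, 8.47% were lower and 3.39% higher. The median log2 fold change of the ZNF genes was -0.10, against -0.04 over all genes tested. The study's own rule asks for p under 0.05 without adjustment and a log2 change beyond 1 in size. The study used DESeq2 and plain fold changes, so its calls need not match those given here. With these cuts on limma's p and the log2(FPKM + 1) scale, only ZNF117 was higher (background 2.36%), and only ZNF185 and ZNF395 were lower (background 1.05%). All other changes were smaller than 2-fold on this scale, which understates the change of low genes. On plain FPKM means ZNF559 also fell by more than 2-fold, to 45.8% of the sh-NC mean. When the most abundant transcript stood in for the sum, 18 were lower and 11 higher, and without the second sh-CEBPG#3 library 28 were lower and 17 higher. The calls over all genes fell as well, to 12.8% lower and 11.1% higher with the most abundant transcript and to 16.1% and 15.9% without that library.

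Both sh-CEBPG#3 libraries lay below both sh-NC libraries for 93 of the 193 genes, where 40.2% of all genes tested did so. Both lay above for 39 genes, where 31.5% of all genes did so, and the groups overlapped for 61. The summed ZNF values made up 0.429% and 0.423% of all FPKM in sh-NC cells and 0.395% and 0.389% in sh-CEBPG#3 cells. Of the 193 genes, 174 had at least 3 FPKM in the mean of each group, 15 reached it through the sh-NC group alone and 4 through the sh-CEBPG#3 group alone, and a gene kept through 1 group was bound to differ in its means. Among the 174, 38 were lower and 18 were higher. Of the 177 ZNF genes tested below the level, 15 were lower and 6 were higher. The genes nearest the level were ZNF628 (mean 3.01 FPKM), ZNF169 (3.05) and ZNF398 (3.05) inside it, and ZNF784 (2.99), ZNF181 (2.98) and ZNF564 (2.98) outside it.

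**Figure D1:**
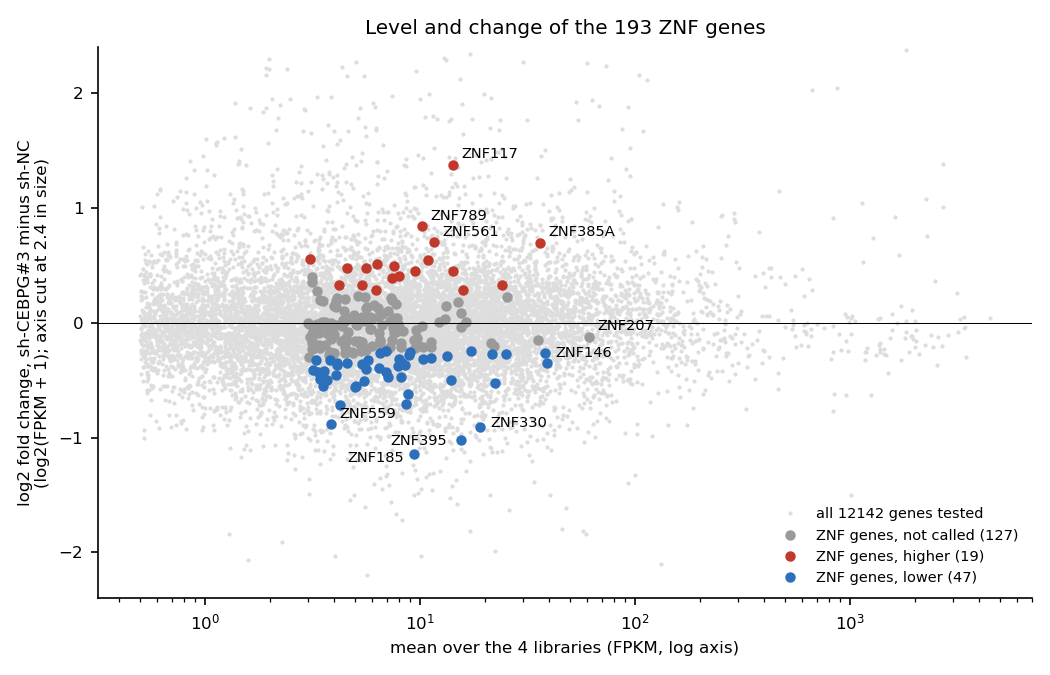
Mean FPKM over the 4 libraries (log axis) against the log2 fold change of sh-CEBPG#3 minus sh-NC, with 1 point per gene; grey dots are all 12142 genes tested and large points the 193 ZNF genes, coloured by limma's call at an adjusted p under 0.05. The 47 lower and 19 higher ZNF genes lie mostly within a log2 change of 1, with ZNF117 above it and ZNF185 and ZNF395 below it.

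ZNF117 had the largest increase. It had 7.97 and 7.07 FPKM in sh-NC cells and 22.6 and 19.6 FPKM in sh-CEBPG#3 cells, with no overlap. The means were 7.52 ± 0.635 FPKM and 21.1 ± 2.09 FPKM (SD, n = 2 each), a 2.81-fold increase, with a log2 fold change of 1.38 (standard error 0.10, adjusted p = 4.46e-06 in limma). ZNF117 lies on the minus strand of chromosome 7 from 64971772 to 65006684 (hg38, GENCODE 44), and its protein has 10 fingers and no match to the KRAB pattern searched. The annotated gene overlaps ERV3-1, the envelope gene of an endogenous retrovirus, on the same strand. ERV3-1 had 7.17 and 6.59 FPKM in sh-NC cells and 21.7 and 19.2 FPKM in sh-CEBPG#3 cells, a log2 fold change of 1.44 (standard error 0.09, adjusted p = 2.21e-06 in limma). How reads were divided between the overlapping genes is not given in the sources used here, so the increases of ZNF117 and ERV3-1 cannot be counted as separate measurements.

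ZNF385A, a zinc finger protein that binds RNA and p53, had the highest level among the genes that rose. It had 26.0 and 28.6 FPKM in sh-NC cells and 46.0 and 43.7 FPKM in sh-CEBPG#3 cells. This was a 1.64-fold increase, with a log2 fold change of 0.70 (standard error 0.08, adjusted p = 9.6e-05 in limma), and its transcript NM_015481 carried most of it, with a mean of 26.1 against 42.0 FPKM. ZNF789, a KRAB zinc finger gene on chromosome 7, had 7.86 and 6.23 FPKM in sh-NC cells and 13.7 and 13.1 FPKM in sh-CEBPG#3 cells, a 1.9-fold increase (log2 fold change 0.84, adjusted p = 0.000182 in limma). It overlaps ZNF394 on the opposite strand, and ZNF394 had 8.46 and 9.07 against 7.62 and 7.60 FPKM (adjusted p = 0.121 in limma). Whether the reads were counted by strand is not given in the sources used here.

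ZNF561, a KRAB zinc finger gene of chromosome 19, had 8.29 and 8.87 FPKM in sh-NC cells and 14.7 and 14.4 FPKM in sh-CEBPG#3 cells (log2 fold change 0.70, adjusted p = 0.000131 in limma). The other 6 of the 10 largest increases were ZNF280C, ZNF580, ZNF710, ZNF512, ZNF189 and ZNF211, with log2 fold changes from 0.47 to 0.55 and adjusted p from 0.000546 to 0.00958 in limma. The libraries of a group lay close together for ZNF710, at 4.91 and 5.18 against 7.62 and 7.64 FPKM. They lay farther apart for ZNF280C, which had 2.32 and 2.27 FPKM in sh-NC cells and 4.40 and 3.32 FPKM in sh-CEBPG#3 cells and which reached 3 FPKM through the sh-CEBPG#3 group alone. The calls of ZNF280C, ZNF512 and ZNF211 were lost with no filter on low genes (adjusted p = 0.0506, 0.0622 and 0.0686 in limma). With the most abundant transcript in place of the sum those of ZNF512 (adjusted p = 0.459) and ZNF280C (adjusted p = 0.0537) were lost, and that of ZNF211 was lost without the first sh-CEBPG#3 library (adjusted p = 0.0684).

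The other 9 genes that rose did so by less, with log2 fold changes from 0.28 to 0.45. They were ZNF581, ZNF524, ZNF277, ZNF513, ZNF493, ZNF706, ZNF579, ZNF124 and ZNF217. ZNF706 had the highest level of the 9, with 21.1 and 21.6 FPKM in sh-NC cells and 27.2 and 26.8 FPKM in sh-CEBPG#3 cells. ZNF493 and ZNF124 carry a KRAB domain, and the groups did not overlap in any of the 9. ZNF579 lay nearest the threshold, with 4.13 and 3.15 FPKM in sh-NC cells and 4.67 and 4.89 FPKM in sh-CEBPG#3 cells (adjusted p = 0.049 in limma).

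**Figure D2:**
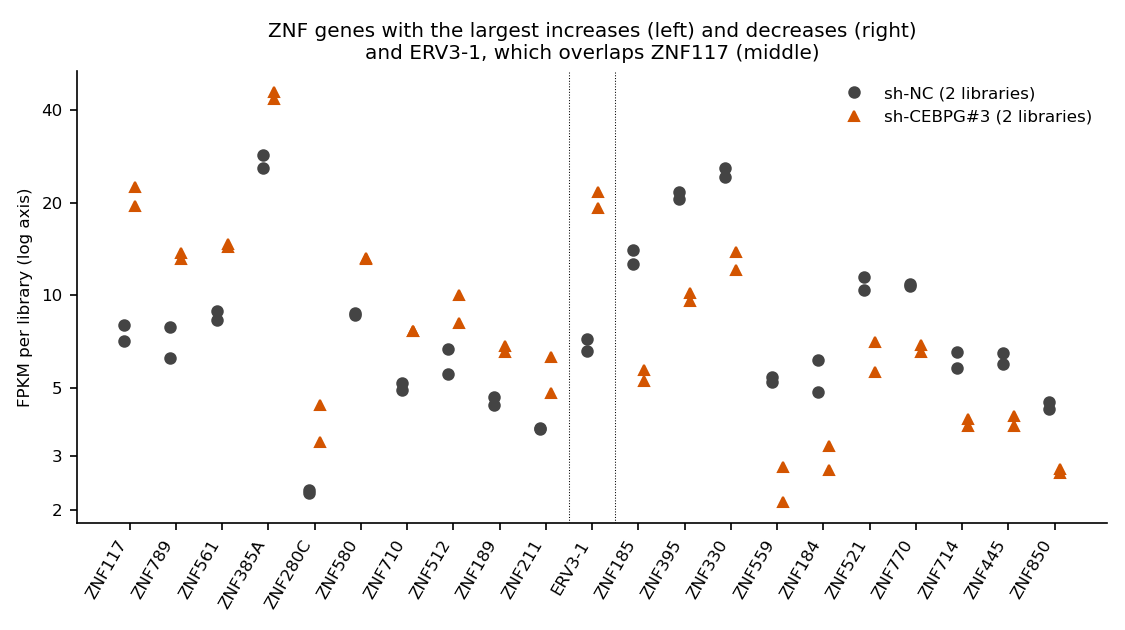
FPKM in each library (log axis) for the 10 ZNF genes with the largest increases, for ERV3-1 and for the 10 ZNF genes with the largest decreases; circles are the 2 sh-NC libraries and triangles the 2 sh-CEBPG#3 libraries. ZNF117 and ERV3-1 rise from about the same level to about the same level. No gene shown has overlapping groups, which the choice of the ZNF genes shown required.

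Among the decreases, ZNF185 and ZNF395 were the largest. ZNF185, a LIM domain protein of the actin cytoskeleton in which no C2H2 finger was found, had 12.6 and 14 FPKM in sh-NC cells and 5.72 and 5.26 FPKM in sh-CEBPG#3 cells. The means were 13.3 ± 1.02 FPKM and 5.49 ± 0.327 FPKM (SD, n = 2 each), so that 41.3% remained (log2 fold change -1.14, standard error 0.09, adjusted p = 1.11e-05 in limma). Its values come from 6 transcripts, and the most abundant, NM_001178113, had a mean of 7.34 against 3.82 FPKM. ZNF395, a factor known to bind the promoter of the huntingtin gene, had 20.6 and 21.7 FPKM in sh-NC cells and 10.2 and 9.57 FPKM in sh-CEBPG#3 cells, from 1 transcript. Here 46.7% remained (log2 fold change -1.02, standard error 0.08, adjusted p = 9.57e-06 in limma).

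ZNF330, a nucleolar protein, had 24.3 and 25.9 FPKM in sh-NC cells and 12.1 and 13.8 FPKM in sh-CEBPG#3 cells (51.6% remained, log2 fold change -0.91, adjusted p = 3.46e-05 in limma). No C2H2 finger was found in it either, and ZNF395 had 1. ZNF521, a transcriptional cofactor of hematopoietic progenitors with 27 fingers, had 10.4 and 11.5 FPKM in sh-NC cells and 7.06 and 5.61 FPKM in sh-CEBPG#3 cells (58.0% remained, adjusted p = 0.000695 in limma). ZNF445, which maintains genomic imprints, had 5.95 and 6.46 FPKM in sh-NC cells and 4.05 and 3.76 FPKM in sh-CEBPG#3 cells (62.9% remained, adjusted p = 0.00136 in limma). The other 5 of the 10 largest decreases were ZNF559, ZNF184, ZNF770, ZNF714 and ZNF850, with log2 fold changes from -0.89 to -0.55 and adjusted p from 0.000229 to 0.00171 in limma. ZNF559, ZNF184 and ZNF850 reached 3 FPKM through the sh-NC group alone, so their means were bound to differ in this direction. ZNF559 had 5.42 and 5.21 FPKM in sh-NC cells and 2.75 and 2.11 FPKM in sh-CEBPG#3 cells, and with its most abundant transcript in place of the sum it was not called (adjusted p = 0.0856 in limma). In all 10 genes both sh-CEBPG#3 libraries lay below both sh-NC libraries, which the choice of these genes required.

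The other 37 genes that fell had log2 fold changes from -0.53 to -0.25. Of these, ZNF511 had the largest, with 24.8 and 28.5 FPKM in sh-NC cells and 18.6 and 17.7 FPKM in sh-CEBPG#3 cells. Near it stood the KRAB genes ZNF551, ZNF138, ZNF266 and ZNF550, with log2 fold changes from -0.51 to -0.49, of which ZNF138 and ZNF550 also reached 3 FPKM through sh-NC alone. ZNF551 had 6.63 and 6.69 FPKM in sh-NC cells and 4.64 and 4.14 FPKM in sh-CEBPG#3 cells. At the other end lay ZNF316, with 7.49 and 7.84 against 6.54 and 6.05 FPKM (adjusted p = 0.0487 in limma), and ZNF317. Among the 127 genes not called, both sh-CEBPG#3 libraries lay below both sh-NC libraries for 46 (36.2%) and above them for 20 (15.7%), where the shares among all 7014 genes not called were 28.5% and 22.6%. The largest increase among these 127 was that of ZNF419, with 1.86 and 3.34 against 3.91 and 3.42 FPKM (log2 fold change 0.40, adjusted p = 0.0858 in limma). The largest decrease was that of ZNF398, with 3.25 and 3.68 against 2.84 and 2.41 FPKM (log2 fold change -0.30, adjusted p = 0.0538 in limma). ZNF419 reached 3 FPKM through the sh-CEBPG#3 group alone and ZNF398 through the sh-NC group alone. The choice of genes thus fixed the direction of both.

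The 5 ZNF genes of the highest level were ZNF207, ZNF146, ZNF22, ZNF385A and ZNF593, and apart from ZNF385A they changed little. ZNF207 (BuGZ), which loads the checkpoint protein BUB3 onto kinetochores, led with 62.2 and 65.8 FPKM in sh-NC cells and 59.4 and 58.1 FPKM in sh-CEBPG#3 cells, and did not pass the test (adjusted p = 0.195 in limma). ZNF593, a factor of ribosome assembly, had 35.5 and 38.9 against 34.4 and 32.3 FPKM and did not pass either (adjusted p = 0.154). ZNF146, made of fingers alone, fell from 42.7 and 45.0 to 35.8 and 32.6 FPKM (log2 fold change -0.35, adjusted p = 0.00526 in limma). ZNF22 fell from 41.6 and 42.3 to 36.3 and 33.0 FPKM (log2 fold change -0.27, adjusted p = 0.0183 in limma). The ZNF146 call was lost without the second sh-CEBPG#3 library (adjusted p = 0.0736 in limma), as was that of ZNF22 (adjusted p = 0.19), whereas ZNF207 and ZNF593 passed when the libraries were scaled to equal totals (adjusted p = 0.0156 and 0.0162). In the order of levels, all 4 libraries of ZNF207 lay above all those of the other genes. In sh-NC cells the libraries of the others did not overlap, in the falling order ZNF146, ZNF22, ZNF593 and ZNF385A, the last with 26.0 and 28.6 FPKM. In sh-CEBPG#3 cells ZNF385A lay above ZNF146, ZNF22 and ZNF593, with 46.0 and 43.7 FPKM. There the ranges of ZNF146, ZNF22 and ZNF593 overlapped, so that their order in that group is not fixed beyond the spread.

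ZNF proteins of known role were grouped by what they do. Of 14 listed promoter and activator factors 13 were among the 193 genes, of which 5 fell, none rose and 8 were not called. For these lists as for the whole family, the background is 23.8% of genes lower and 18.5% higher. ZNF281, ZNF146, ZNF202, ZNF263 and ZNF24 fell, with log2 fold changes from -0.36 to -0.29, and the calls of ZNF202, ZNF263 and ZNF24 were lost without the second sh-NC library (adjusted p = 0.267, 0.0847 and 0.112 in limma). ZNF143, which activates promoters of small nuclear RNA genes and many others, had 4.21 and 5.10 FPKM in sh-NC cells and 5.70 and 5.56 FPKM in sh-CEBPG#3 cells, without passing the test (adjusted p = 0.0992 in limma). It passed with quantile normalization (adjusted p = 0.0424) and without the second sh-NC library (adjusted p = 0.0359). ZNF148, a Krüppel-like factor that binds GC-rich promoters, had 3.43 and 3.6 against 3.58 and 3.48 FPKM. The median log2 fold change of these 13 genes was 0.01.

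Of 8 listed fingers that work with corepressor complexes 5 were among the 193 genes, of which 1 rose and 4 were not called. ZNF217, an oncogene product bound to the CoREST complex, rose from 14.2 and 14.2 to 18.1 and 16.9 FPKM (log2 fold change 0.28, adjusted p = 0.0173 in limma). Without the first sh-CEBPG#3 library ZNF217 was not called (adjusted p = 0.125). ZNF516, ZNF644, ZNF687 and ZNF592 had log2 fold changes from -0.23 to 0.03. Of 7 listed factors of transposon and imprint silencing 3 were among the 193 genes, and of these ZNF445 fell and ZNF638 and ZNF274 were not called. ZNF638, which recruits the HUSH complex to unintegrated retroviral DNA, had 12.2 and 12 against 10.8 and 9.75 FPKM (adjusted p = 0.0734 in limma).

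Of 9 listed factors of RNA, ribosomes, the spindle and SUMO, all of them among the 193 genes, ZNF385A rose, ZNF326 fell and 7 were not called. ZNF326, part of a complex that couples RNA polymerase II to splicing, had 9.17 and 10.2 FPKM in sh-NC cells and 7.22 and 6.16 FPKM in sh-CEBPG#3 cells (log2 fold change -0.48, adjusted p = 0.00401 in limma). ZNF598, the ubiquitin ligase of collided ribosomes, had 22.5 and 24.9 against 20.5 and 20.4 FPKM (adjusted p = 0.0702), and ZNF622, which matures the large ribosomal subunit, had 21.9 and 24.7 against 27.0 and 27.7 FPKM (adjusted p = 0.0517). Neither passed the test in limma, both passed it with equal totals (adjusted p = 0.0109 and 0.0266), and in each the groups did not overlap.

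The partners through which KRAB zinc fingers silence chromatin are not ZNF genes, and a list of 20 of them was set beside the family. Of the 20, 9 were lower, 1 was higher and 10 were not called, where 23.8% of all genes tested were lower and 18.5% higher. Their median log2 fold change was -0.25, against -0.04 over all genes tested. TRIM28, the corepressor that KRAB domains bind, had 142 and 151 FPKM in sh-NC cells and 140 and 135 FPKM in sh-CEBPG#3 cells and was not called (adjusted p = 0.338 in limma). SETDB1 had 20.6 and 22.4 against 19 and 18.6 FPKM and was not called either (adjusted p = 0.091). CHD3, a helicase of the NuRD complex, fell from 24.8 and 26.3 to 12.3 and 11.8 FPKM (log2 fold change -1.02, adjusted p = 7.93e-06 in limma).

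MPHOSPH8, the HUSH subunit that binds methylated histone H3, fell from 14.2 and 14.2 to 9.38 and 8.51 FPKM (log2 fold change -0.62, adjusted p = 0.000343 in limma), and MORC2, an ATPase that works with HUSH, fell from 8.65 and 8.35 to 6 and 6.28 FPKM. The HUSH subunits TASOR and PPHLN1 were not called. DNMT1, HDAC1, SUV39H1, CBX1, SMARCAD1 and CHD4 made up the rest of the 9, with log2 fold changes from -0.59 to -0.22. CBX5, which encodes heterochromatin protein 1 alpha, was the gene that rose, from 12.6 and 12.7 to 17.9 and 16.2 FPKM (log2 fold change 0.40, adjusted p = 0.0035 in limma).

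**Figure D3:**
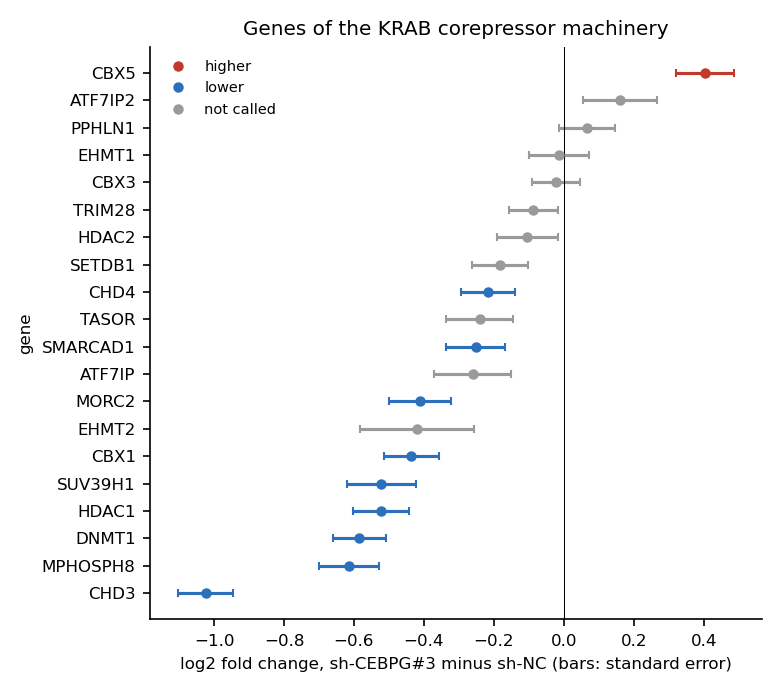
Log2 fold change of sh-CEBPG#3 minus sh-NC with its standard error from limma for the 20 genes of the KRAB corepressor machinery, coloured by the call at an adjusted p under 0.05. CHD3 lies lowest at -1.02 and CBX5 highest at 0.40, while TRIM28 and SETDB1 were not called.

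The 193 genes were then divided by properties that their choice did not use. From the canonical GENCODE coding sequences of 191 of them, a pattern for the KRAB A box was found in 87 and one for the SCAN domain in 12, of which 3 had both, and 95 had neither. Divergent KRAB domains can escape the pattern, so genes counted with SCAN alone or with neither pattern can still encode KRAB proteins. The counts below are counts of pattern matches and not of domains. The background for them is 23.8% of all genes tested lower and 18.5% higher. Of the 84 genes with KRAB alone, 21 fell and 6 (7.14%) rose, with a median log2 fold change of -0.17. Of the 95 with neither pattern, 22 (23.2%) fell and 13 (13.7%) rose, with a median of -0.04. In both groups the share of lower genes was near the background and the share of higher ones was below it. Of the 9 with a match to SCAN alone, which does not exclude a KRAB domain, ZNF445, ZNF202, ZNF263 and ZNF24 fell and none rose. Of the 3 with both none was called, and ZNF274, which works with SETDB1, had 6.06 and 6.48 against 6.5 and 6.58 FPKM. The 84 KRAB genes also had lower levels, with a median of 4.67 FPKM against 7.54 FPKM, and no test of the difference between these groups was made. Of the KRAB genes that fell, ZNF559, ZNF184, ZNF850, ZNF138, ZNF550, ZNF790 and ZNF689 reached 3 FPKM through the sh-NC group alone. So did ZNF503 and ZNF473 with neither pattern, while ZNF280C, which rose with neither, reached it through sh-CEBPG#3 alone. The choice of genes fixed the direction of these, and they are part of the counts and medians above.

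Grouped by fingers, genes with 10 or more fingers numbered 92, of which 19 (20.7%) fell and 5 (5.43%) rose. Those with 5 to 9 fingers numbered 58, of which 17 (29.3%) fell and 7 (12.1%) rose. Those with 0 to 4 fingers numbered 41, of which 11 (26.8%) fell and 7 (17.1%) rose. For the groups by fingers and by chromosome, the background is 23.8% of all genes tested lower and 18.5% higher. The medians of the finger groups were close together, from -0.12 to -0.11. Chromosome 19 held 73 of the 193 genes, of which 15 (20.5%) fell and 7 (9.59%) rose, and the other chromosomes held 120, of which 32 (26.7%) fell and 12 rose. Chromosome 7 held 22 genes, of which 7 fell and 3 rose, and it held the pair of genes with the largest increases, ZNF117 and ZNF789. Its 7 lower genes were ZNF138, ZNF3, ZNF736, ZNF777, ZNF107, ZNF783 and ZNF316, with log2 fold changes from -0.50 to -0.25. On chromosome 19 the 50 genes with a KRAB match had a median log2 fold change of -0.18, and the 23 without a match had one of 0.01. Genes kept through 1 group alone are part of these medians too, and the difference was not tested.

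Along chromosome 19, neighbouring ZNF genes moved together in some places and apart in others, and the genes of this paragraph were chosen after their values were seen. On the short arm, 5 successive expressed ZNF genes fell between positions 8806170 and 9584504 (hg38). These were ZNF558, ZNF317, ZNF559, ZNF266 and ZNF121, with log2 fold changes of -0.28, -0.25, -0.89, -0.50 and -0.37. The next expressed ZNF gene was ZNF561, from 9604680 to 9621236, which rose by 0.70. On the long arm ZNF579, ZNF524, ZNF580 and ZNF581 rose, with log2 fold changes of 0.32, 0.45, 0.54 and 0.45, and ZNF865, which lies among them, had 5.32 and 6.38 against 6.35 and 5.61 FPKM. ZNF580 and ZNF581 overlap on the same strand, so that their reads may be shared, and CCDC106, which overlaps both, was not called (adjusted p = 0.269 in limma). Over the whole list, 29 of 44 neighbouring pairs at most 50 kb apart had the same sign. Since 129 of the 193 genes had a log2 fold change below 0 and 64 above it, unrelated genes often share a sign too. Whether neighbours did so more often was not tested.

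**Figure D4:**
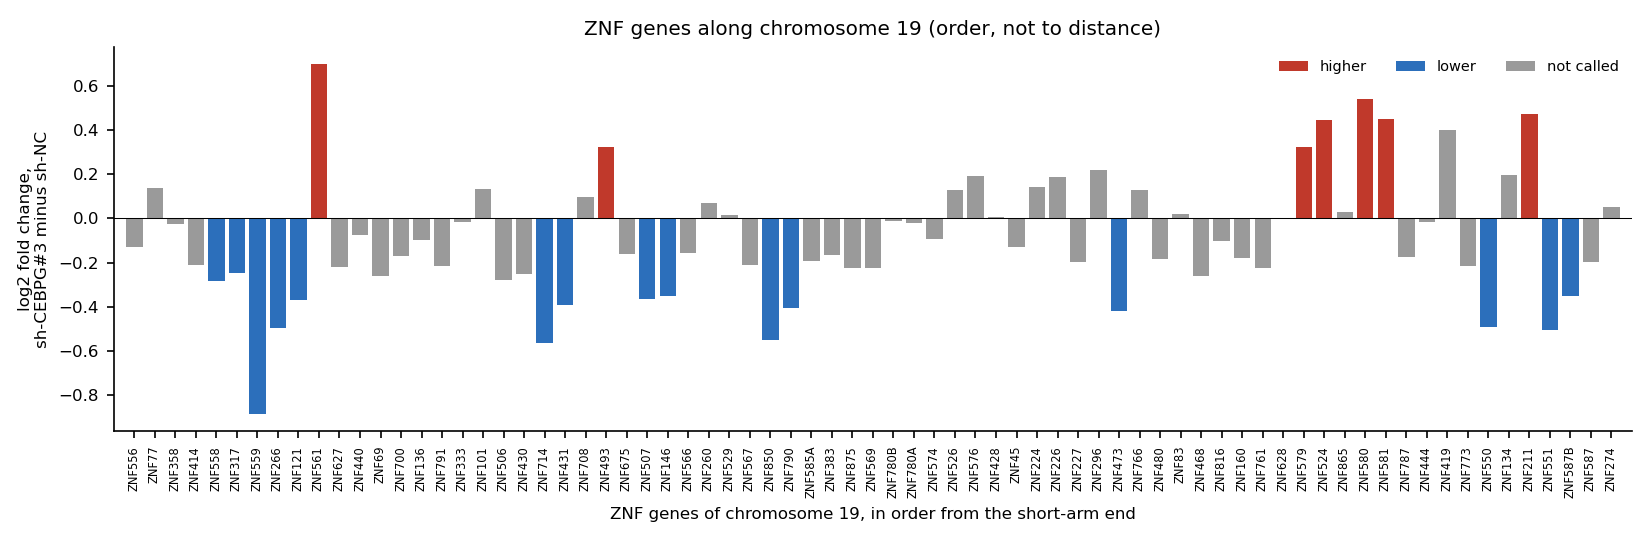
Log2 fold change of sh-CEBPG#3 minus sh-NC for the 73 ZNF genes of chromosome 19 in their order from the end of the short arm, 1 bar per gene, coloured by limma's call at an adjusted p under 0.05. A run of 5 lower genes ends at ZNF121 and is followed by ZNF561, which is higher. Further along, ZNF579, ZNF524, ZNF580 and ZNF581 are higher, with ZNF865, which was not called, between ZNF524 and ZNF580.

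Promoter sequences of ZNF561, some of its neighbours and other genes are set beside their changes, and the windows shown were chosen after these were seen. RefSeq promoters (GRCh38.p14, 250 bases before to 50 bases after the start) were matched for 170 of the 193 genes and searched on both strands. The cAMP response element TGACGTCA, a palindrome read by CREB and ATF factors, was found in 10 of the 170 (5.88%), against 1.85% of all 35116 promoters and 3.41% of those of genes tested here. Of the 10 genes, 5 fell, 1 rose and 4 were not called. For this and the patterns that follow, the background is 23.8% of all genes tested lower and 18.5% higher. Below, 30 bases of the promoter are given 5′ to 3′ on the strand of the gene, with the element in capitals.
ZNF561: tgaagcggaagTGACGTCAgcgcaccaccg
ZNF121: cggagcggaagTGACGTCAgcgcacaatcg
ZNF266: ctggaggcggaagTGACGTCAcggagcgct
ZNF330: ctcccgtcctaTGACGTCAgccgtaaggcg
ZNF511: ggaagtgagcgTGACGTCAcgtccggctcg
These lie on the minus strand at chr19:9621237-9621266, chr19:9584536-9584565 and chr19:9435574-9435603, and on the plus strand at chr4:141220863-141220892 and chr10:133308867-133308896. Aligned on the element, the windows of ZNF561 and ZNF121 were identical at 26 of 30 bases. Those of ZNF561 and ZNF266 were identical at 19 of 28 bases, and those of ZNF561 and ZNF330 at 12 of 30. The bases of the element are among the identical ones because the windows were chosen to hold it. ZNF561 rose by 0.70, whereas ZNF121 fell from 9.92 and 9.55 to 7.54 and 7.06 FPKM (adjusted p = 0.00682 in limma). ZNF266, ZNF330 and ZNF511 also fell, the last from 24.8 and 28.5 to 18.6 and 17.7 FPKM (adjusted p = 0.00102). The part of the element in these changes was not tested.

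A CEBP half-site pattern, TTGCNNAA, was found in 9 of the 170 promoters (5.29%), against 10.5% of all promoters and 7.04% of those of genes tested. It is shown because CEBPG belongs to the family that reads such sites, and of the 9 genes 3 fell, 2 rose and 4 were not called. The windows of the 2 genes that rose and of 2 that fell follow, with the match in capitals.
ZNF581: cccccgaccctTTGCTCAAtaaacattccg
ZNF512: agTTGTGCAAagattcggaatgagagccag
ZNF639: tgccatctgccTTGCCTAAcctgggcaaga
ZNF790: cccaaggccgcTTGCCCAAatccgcgggaa
They lie at chr19:55643434-55643463, chr2:27582792-27582821 and chr3:179322644-179322673 on the plus strand and at chr19:36850869-36850898 on the minus strand, and the match of ZNF512 reads on the opposite strand of its gene. ZNF581 rose from 12.7 and 11.2 to 16.5 and 16.8 FPKM, and ZNF639 fell from 9.01 and 8.98 to 7.26 and 6.77 FPKM (adjusted p = 0.0146 in limma). Of the other patterns, the composite CEBP-ATF element TGATGNAA was found in 1 promoter (0.588%, against 3.62% of all promoters and 1.6% of those of genes tested), that of ZNF143. An interferon response pattern was found in 2 (1.18%, against 3.57% and 2.98%), those of ZNF189, which rose, and ZNF207, which was not called. The motif bound by ZNF143 stood in 5 of the 170 promoters (2.94%), against 0.248% of all promoters and 0.621% of those of genes tested, and of these genes ZNF277 rose, ZNF317 fell and 3 were not called. A match is a run of letters in the window and not a measured binding site.

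The sums per gene were also taken apart into RefSeq transcripts. The 193 genes had 479 transcripts with values, of which 279 had a mean of at least 1 FPKM, and 73 genes had 1 transcript only. No gene had 2 such transcripts that changed in opposite directions by more than 1 on the log2 scale, and 4 genes (ZNF227, ZNF23, ZNF33A and ZNF556) had such a pair beyond 0.5. Of these 8 transcripts, only NM_006974 of ZNF33A passed the test below. Transcripts were also fitted one by one with limma. Of all 18624 with a mean of at least 0.5 FPKM, 4.16% were higher and 4.08% lower at an adjusted p under 0.05. Of the 279, which had to reach the higher level of 1 FPKM, 4 were higher and 4 were lower. ZNF33A, a KRAB gene whose sum was not called, was among them, chosen for display after its values were seen. Its transcript NM_006974 fell from 1.93 and 2.45 to 0.213 and 0.492 FPKM (adjusted p = 0.0482 in limma), while NM_006954 had 1.19 and 0.401 against 2.04 and 1.37 FPKM (adjusted p = 0.272). ZNF706 rose in its sum from 21.1 and 21.6 to 27.2 and 26.8 FPKM, and its minor transcript NM_001042510 rose from 0.451 and 0.741 to 3.04 and 2.69 FPKM (adjusted p = 0.0368), whereas the main one, NM_016096, had 19.5 and 18.8 against 21.0 and 22.2 FPKM (adjusted p = 0.229). Estimates for single transcripts of 1 gene share reads, and near-identical KRAB genes of a cluster may do so too.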

How the data were processed

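The submitters' notes name HISAT2 2.0.5 and hg38. The authors filtered and mapped the reads and deposited FPKM values, 1 per RefSeq transcript and library. The annotation, the program behind the FPKM values and any use of strand are not given in the sources used here. Of 28780 transcripts, 28581 have values, and these were summed by symbol into 16490 genes. Depth is unknown, since FPKM values carry no counts: of 1027 transcripts under 0.06 FPKM in both sh-NC libraries, at most 0.487% shared a ratio between them, to 3 decimals. No interval or detection floor is therefore given.

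Genes reaching a mean of 0.5 FPKM (12142) were compared as log2(FPKM + 1) by limma 3.58.1 under R 4.3.3 (lmFit and trended eBayes, no block), with Benjamini-Hochberg adjustment. The study's count test (DESeq2) was not run, since no counts are used here. With 2 libraries per group an exact permutation test cannot go below p = 0.333, so all p-values rest on limma's model. The script was tested on simulated data. The genes and lists were chosen with earlier results of these data known. Named are the 10 largest increases and 10 largest decreases with an adjusted p under 0.05 and no overlap between groups, the 5 highest levels, the genes nearest 3 FPKM, the listed genes, and others marked as chosen later. The protein patterns were to come from a protein table, in whose place canonical coding sequences were translated. Positions and coding sequences come from GENCODE 44, promoters from RefSeq (GRCh38.p14), read with Python 3.11.15. The alternatives were pseudocounts of 0.1 and 0.01, other filters, quantile normalization, equal totals, a replicate block, each library left out, the most abundant transcript in place of the sum, and other levels for the choice of genes. A result for 1 marker gene is not reported here.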

Additional observations from a re-analysis of the deposited data

How the results depend on the processing

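The count of higher ZNF genes, 19, was 11 with the most abundant transcript of each gene in place of the sum and 12 with no filter, and it was 14 to 20 with each library left out. The count of lower ones, 47, was 18 with the most abundant transcript and 28 to 47 with each library left out, the lowest without sh-CEBPG#3 replicate 2. Over the other alternatives these counts stayed within 1.5 times, and the median log2 fold change of -0.10 ranged from -0.15 to -0.07. Among these, the lower count was 32 with no filter and 62 with equal totals. The shares of all genes moved as well, to 13.5% lower and 11.3% higher with no filter and to 28.8% and 19.3% with equal totals. In fits without a library the lone sample of its group is assumed to vary like the others. Of the 66 genes called, 26 remained called in the same direction with the most abundant transcript and 44 with no filter, 41 in every fit on summed values of all 4 libraries, and 23 in every fit run. Same-numbered libraries deviated with a correlation of 0.061 across genes. With the replicate block 21 ZNF genes were higher and 40 lower.

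ZNF117 ranged from 1.28 to 1.49, ZNF185 from -1.28 to -0.80 and ZNF395 from -1.10 to -0.98, each with an adjusted p under 0.05 in limma in every alternative. Of 50 genes followed, 4 changed sign, none of them called. ZNF148 (0.01) was -0.014 with equal totals and -0.02 to 0.034 with each library left out. ZNF131 (0.07) was -0.236 with the most abundant transcript and -0.044 to 0.187 with each library left out. ZNF687 (-0.06) was 0.006 and ZNF451 (-0.07) was 0.064 with the most abundant transcript. Among the other values, 28 were weaker and 18 stronger. Their cause was not tested. With FPKM alone, the precision of a low gene cannot be set from its reads.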
